A study of Mus musculus with 14 samples.

Results

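The genes described here were 7 mouse lipases and esterases, *Lipg*, *Lpl*, *Lipa*, *Lipe*, *Pnpla2*, *Mgll* and *Ces2g*, out of 52550 genes in a count table of RNA sequencing. They were a named list in which *Lipg* and *Ces2g* had been chosen by their large differences between MLL-AF9 cells and normal progenitors in these same libraries. The levels of all members in that contrast are therefore given as a description, with no test. The table held 14 libraries of mouse bone marrow cells. Hematopoietic stem and progenitor cells (HSPCs) were enriched from the femurs and tibiae of C57BL/6 mice aged 8 to 20 weeks, and RNA was taken straight from freshly enriched cells of wild-type mice (WT, n = 4) or of Mir139KO mice (n = 4), in which the microRNA gene *Mir139* was deleted by CRISPR double nicking. The third group (n = 6) were WT HSPCs, kept overnight in medium with SCF, GM-CSF and the interleukins IL-3 and IL-6, transduced with a retrovirus that carries the leukemia fusion gene MLL-AF9, selected, and replated repeatedly in semisolid medium. Per the methods of the study, MLL-AF9 cells were then expanded in liquid medium with fetal bovine serum and the same factors. The vector was pMSCV-MLL-AF9-neo, selected with neomycin (n = 3), or pMSCV-MLL-AF9-puro, selected with puromycin (n = 3). No cultured HSPCs without MLL-AF9 were among the libraries, so the fusion gene, the culture and the selection cannot be told apart, and neither can the vector and the drug. The labels do not say that replicates came from separate mice or transductions, so p-values measure the spread between these libraries.

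Lipases free fatty acids from the lipids that carry or store them. *Lipg* (endothelial lipase) and *Lpl* (lipoprotein lipase) encode secreted enzymes that work at the cell surface on lipoproteins, the first mainly on the phospholipids of HDL and the second on the triglycerides of chylomicrons and VLDL. *Lipa* encodes lysosomal acid lipase, which hydrolyses the cholesteryl esters and triglycerides of endocytosed lipoproteins. Stored triglyceride in lipid droplets is taken apart in sequence by adipose triglyceride lipase (*Pnpla2*), hormone-sensitive lipase (*Lipe*) and monoglyceride lipase (*Mgll*). *Ces2g* belongs to the carboxylesterases, a family of serine hydrolases with broad substrates that sits in a gene cluster.

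The start regions of 3 members are shown. *Ces2g* was lower in MLL-AF9 cells. Values of *Pnpla2* and *Mgll* did not overlap between neo and puro cultures, in opposite directions, but neither difference passed the main test described below. RefSeq start sites were held for 5 of the 7 members, and *Lipg* and *Lpl* had none. The 250 bases before the first RefSeq start site are given 5′ to 3′ on the sense strand, build GRCm38.p6. Capitals mark matches on either strand to 4 short motifs. They were AGATAA as the letters of a GATA factor site, CACCC as a CACC box, CACGTG as an E-box and GAGGAAG as an ETS factor site, and none of the matches shown overlap.
Ces2g, chr8:104961468-104961717, + strand: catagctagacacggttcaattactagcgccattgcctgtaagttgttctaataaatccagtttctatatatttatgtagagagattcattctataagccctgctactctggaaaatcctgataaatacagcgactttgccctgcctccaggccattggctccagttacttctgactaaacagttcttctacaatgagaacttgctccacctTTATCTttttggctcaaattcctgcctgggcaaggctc
Mgll, chr6:88724162-88724411, + strand: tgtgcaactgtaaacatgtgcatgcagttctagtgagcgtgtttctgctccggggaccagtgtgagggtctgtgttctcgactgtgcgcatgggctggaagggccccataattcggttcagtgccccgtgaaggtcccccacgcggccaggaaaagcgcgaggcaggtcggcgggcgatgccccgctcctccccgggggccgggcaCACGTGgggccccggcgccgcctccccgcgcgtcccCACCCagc
Pnpla2, chr7:141454938-141455187, + strand: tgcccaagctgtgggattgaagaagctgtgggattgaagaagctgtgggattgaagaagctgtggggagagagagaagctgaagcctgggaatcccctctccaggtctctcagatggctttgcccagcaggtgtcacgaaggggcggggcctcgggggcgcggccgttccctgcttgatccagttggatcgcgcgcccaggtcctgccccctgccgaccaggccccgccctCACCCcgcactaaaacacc

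The *Ces2g* window held 1 GATA match, written on the other strand as TTATCT and starting 38 bases before the start site, and no match to the other motifs. The *Mgll* window held an E-box at 44 bases and a CACC box at 8 bases before the start, and the *Pnpla2* window held a CACC box at 19 bases. The window of another *Mgll* start site, further downstream and not printed, held no match. In the window of *Lipa*, not printed, a CACC box lay at 68 bases and an ETS match at 183 bases. Of 32851 mouse windows of the same length, 9.99% held the GATA letters, 52% the CACC box, 6.02% the E-box and 10.6% the ETS letters. These are matches of letters, and binding was not measured.

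Library totals ran from 35016668 to 45877994 counts, so 3 counts corresponded to 0.0654 to 0.0857 CPM by total counts alone. CPM are counts relative to library size. Unless total-count scaling is named, the CPM given below also had TMM scaling (trimmed mean of M values) over all 14 libraries. The noncoding RNA *Gm26917* took 17 to 35.4% of the counts in HSPC libraries and 7.55 to 10.4% in MLL-AF9 libraries, and TMM factors ran from 0.614 to 1.1 and from 1.179 to 1.396. Of the 8 HSPC libraries, 4 (WT 1 and 2, Mir139KO 2 and 3) lay under 25%, and results that depend on this split are given with it. The row for *Mir139* held 0 counts in every library, so the deletion could not be checked. *Kit*, a progenitor receptor, ran from 144 to 265 CPM in HSPCs and from 42 to 117 in MLL-AF9 cells, and *Hoxa9*, a known target of MLL fusions, from 2.87 to 6.12 CPM and from 122 to 159. *Cd34* ran from 31.8 to 50.5 CPM in HSPCs and from 0.0387 to 1.62 in MLL-AF9 cells. *Ptprc* (CD45) ran from 10.4 to 80.4 CPM in HSPCs and from 345 to 489 in MLL-AF9 cells. The enriched HSPCs also held RNA of lineage marker genes. Their summed levels were 3921 to 21220 CPM for neutrophils and 1611 to 6102 CPM for B cells. For mast cells, basophils and eosinophils they were 683 to 1142 CPM. In the cultures the sums were 1941 to 4068, 10.1 to 30.2 and 13.7 to 71.5 CPM. Whether the marker RNA came from progenitors or from differentiated cells was not tested. In bulk RNA, fewer cells of a type and less RNA per cell cannot be told apart.

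*Lipe* was listed at 0 counts in all 14 libraries. Its whole span (chr7:25379527-25398710, − strand, GRCm38) lies inside that of *4732471J01Rik* on the opposite strand (chr7:25376819-25566417), which had 56 to 1013 counts per library. All 7 annotated genes lying wholly inside *4732471J01Rik* were at 0. The same held across the table. Of 1261 protein-coding genes with no base free of another gene's span, 1228 (97.4%) had no count in any library, against 133 of 996 genes (13.4%) with some but under 50% of the span free and 2561 of 19562 (13.1%) with at least 50% free. The share was 98.8% where the covering genes were on the opposite strand only and 99.3% where they were on the same strand only. The level of hormone-sensitive lipase could therefore not be read from this table, and its 0 is not a measurement of absence. The spans of *Lipg*, *Lpl*, *Lipa*, *Pnpla2* and *Ces2g* were 100% free and that of *Mgll* 86.1%.

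**Figure D1:**
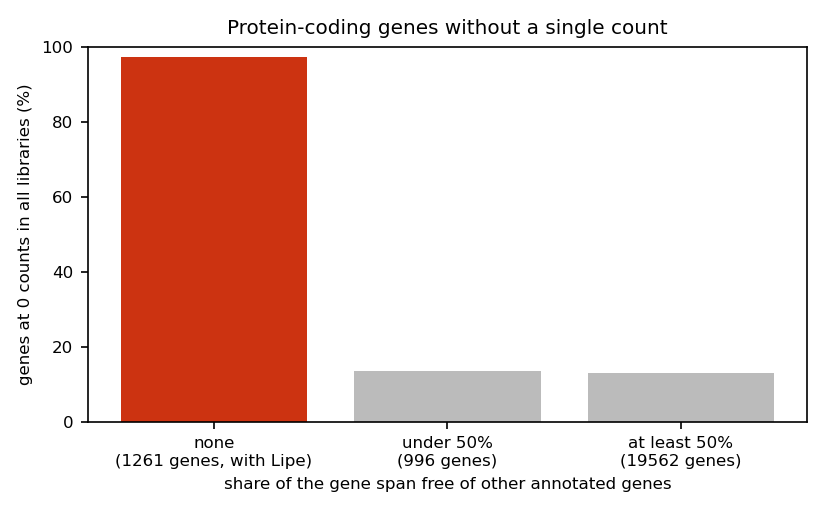
Percent of protein-coding genes with 0 counts in all 14 libraries (vertical axis), by how much of the gene's span is free of other annotated genes (horizontal axis, number of genes below each bar). The bar for genes without a free base, to which *Lipe* belongs, stands at 97.4%, and the other bars at 13.4% and 13.1%.

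*Lipg*, on chromosome 18 (74939322-74961263, − strand, 4715 exon bases), was low in HSPCs, with 9 to 95 counts a library, and high in every MLL-AF9 culture. The WT libraries had 1.98, 0.208, 0.568 and 0.446 CPM, from 95, 9, 17 and 12 counts. The Mir139KO libraries had 0.69, 0.8, 0.855 and 1.2 CPM, from 16, 28, 35 and 30 counts. The cultures had 351, 189 and 209 CPM with the neo vector and 207, 272 and 220 CPM with the puro vector, from 9591 to 18152 counts. The cultures lay far above all 8 HSPC libraries, and the neo and puro values overlapped. The means (± SD) were 0.8 ± 0.798 CPM over the 4 WT, 0.885 ± 0.219 over the 4 Mir139KO and 241 ± 60.8 CPM over the 6 MLL-AF9 libraries. The log2 fold change of MLL-AF9 cells was 8.19 against WT (SE 0.70) and 8.07 against Mir139KO HSPCs (SE 0.35), and both comparisons share the MLL-AF9 libraries. WT replicate 1 held most of the WT reads of *Lipg*, and without it the difference from WT was 9.22. The 10 endothelial markers, of the cells that give the enzyme its name, summed to 247 to 629 CPM in WT, 337 to 639 in Mir139KO and 23.5 to 144 CPM in MLL-AF9 cells. Against WT edgeR called 8 of them lower and none higher, and their part in the level of *Lipg* was not tested. The low HSPC counts leave the size of the difference less certain than its presence in each culture.

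*Lpl* (chr8:68880491-68907448, + strand) was also higher in every culture, at lower and more variable levels. WT HSPCs had 8.36, 8.94, 8.72 and 7.24 CPM and Mir139KO HSPCs 4.74, 6.49, 6.25 and 8.66 CPM. The neo cultures had 78.2, 178 and 57.3 CPM and the puro cultures 72.1, 16.6 and 59.3 CPM. All 6 cultures lay above all HSPC libraries, with puro replicate 2 the closest to them, and the highest culture was 10.8 times the lowest, against 1.86 times for *Lipg*. The means were 8.32 ± 0.755 CPM in WT, 6.53 ± 1.61 in Mir139KO and 77 ± 54.1 in MLL-AF9 cells (SD, n = 4, 4 and 6). The log2 fold change was 3.20 against WT (SE 0.54) and 3.54 against Mir139KO HSPCs (SE 0.55). After a correction for GC content it was 1.98 against WT and 2.30 against Mir139KO, and the libraries then overlapped in both comparisons. Adipocytes and macrophages are known sources of lipoprotein lipase. The 10 stroma and adipocyte markers summed to 2.39 to 11.1 CPM in the cultures, against 261 to 2425 CPM in WT and 649 to 2040 CPM in Mir139KO HSPCs, with leptin at 0 throughout. The 10 monocyte and macrophage markers summed to 261 to 669 CPM in the cultures and 871 to 2022 CPM in HSPCs. With edgeR 2 of these 10, *Adgre1* (log2 fold change 1.47 against WT, SE 0.39, adjusted p = 0.00629) and *Cd14* (1.29, SE 0.46, adjusted p = 0.0287), were called higher in MLL-AF9 cells than in WT. In the same test 6 were called lower, among them *Csf1r* (−3.71, SE 0.86, adjusted p = 0.00277) and *C1qa* (−8.09, SE 0.95, adjusted p = 3.62e-05), and 2 were not called. Of all genes, 32.8% were called higher and 29.4% lower against WT. The marker counts were the same against Mir139KO HSPCs. Of the 9 stroma and adipocyte markers tested 6 were called lower and none higher against WT. The part of these cell types in the level of *Lpl* was not tested.

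*Ces2g* (chr8:104961718-104969537, + strand) went the other way. WT HSPCs had 150, 161, 297 and 309 CPM and Mir139KO HSPCs 238, 176, 219 and 301 CPM. The neo cultures had 2.03, 1.4 and 1.36 CPM and the puro cultures 2.15, 2.05 and 2.5 CPM. Every culture lay far below every HSPC library, yet 71 to 133 counts remained in each, well above 3. The means were 229 ± 85.1 CPM in WT, 234 ± 51.7 in Mir139KO and 1.92 ± 0.45 in MLL-AF9 cells (SD, n = 4, 4 and 6). The log2 fold change was −6.90 against WT (SE 0.35) and −6.94 against Mir139KO HSPCs (SE 0.28). The 4 HSPC libraries with the larger *Gm26917* share had the 4 highest CPM. With scaling by total counts the HSPC range narrowed to 146 to 211 CPM, and the difference from WT was −6.19.

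The 3 genes whose log2 CPM followed *Ces2g* most closely over the 14 libraries were *Slc38a5*, *Aqp1* and *Cldn13*, each with Pearson r = 0.998, out of 10965 genes searched. *Aqp1* is the water channel of red cells. Such an r rests mainly on the step between HSPCs and cultures, and no p is given. In the cultures the 3 genes averaged 0.00648, 0.00953 and 0 CPM, whereas *Ces2g* averaged 1.92 CPM. The 10 erythroid markers summed to 970 to 1845 CPM in WT, 1003 to 2066 in Mir139KO and 56.5 to 208 CPM in MLL-AF9 cells. In the edgeR quasi-likelihood test 8 of the 9 tested were lower in MLL-AF9 cells than in WT and none was higher. Against Mir139KO HSPCs 8 of 9 were lower and 1, the transferrin receptor *Tfrc*, was higher, by 1.04 on the log2 scale (SE 0.43, edgeR adjusted p = 0.0452). *Hbb-bs*, an adult beta globin, was at 0 in all cultures, and *Alas2* was at 0 in all libraries but has no base free of other genes. The part of red cell precursors in the level of *Ces2g* was not tested.

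*Lipa* (chr19:34492318-34527474, − strand) overlapped between all groups. WT HSPCs had 57.8, 49.5, 37.2 and 38.9 CPM and Mir139KO HSPCs 31.8, 61.1, 56.2 and 48.5 CPM. The neo cultures had 87.6, 85.1 and 45.6 CPM and the puro cultures 109, 40.5 and 100 CPM. In 4 of the 6 cultures *Lipa* was above all HSPC libraries, and neo replicate 3 and puro replicate 2 were within their range. The means were 45.8 ± 9.65, 49.4 ± 12.8 and 77.9 ± 28.3 CPM (SD) in WT, Mir139KO and MLL-AF9 cells, and the log2 fold change was 0.76 against WT (SE 0.33) and 0.64 against Mir139KO (SE 0.32). Its direction turned with a GC content correction, to −0.64 and −0.79, so no direction is stated for the acid lipase.

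Of the lipid droplet lipases, *Pnpla2* (chr7:141455198-141460743, + strand) had 54.2, 46.9, 127 and 114 CPM in WT and 122, 68.9, 66.7 and 113 CPM in Mir139KO HSPCs. The neo cultures had 50.6, 34.4 and 24.9 CPM and the puro cultures 82.8, 82.8 and 85.9 CPM. The MLL-AF9 and HSPC values overlapped, and the puro cultures were close together and above all neo cultures. The log2 fold change of MLL-AF9 cells was −0.51 against WT (SE 0.41) and −0.63 against Mir139KO (SE 0.36). With scaling by total counts it was 0.24 and 0.17, and in WT libraries under 25% *Gm26917* 0.20, and a GC content correction gave 0.33 and 0.26, so that its direction depends on the processing.

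*Mgll* (chr6:88724412-88828360, + strand), which acts last on the droplet, had 56.3, 33.1, 43.3 and 58.7 CPM in WT and 45.3, 34.8, 37.4 and 53.4 CPM in Mir139KO HSPCs. The neo cultures had 268, 101 and 133 CPM and the puro cultures 86.7, 38 and 78.5 CPM. In 5 of the 6 cultures *Mgll* lay above every HSPC library, and puro replicate 2 lay within their range. The means were 47.9 ± 11.9, 42.7 ± 8.41 and 117 ± 79.8 CPM (SD) in WT, Mir139KO and MLL-AF9 cells. The log2 fold change was 1.30 against WT (SE 0.47) and 1.45 against Mir139KO (SE 0.44). Against WT it was 1.84 with the neo cultures alone and 0.52 with the puro cultures alone.

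**Figure D2:**
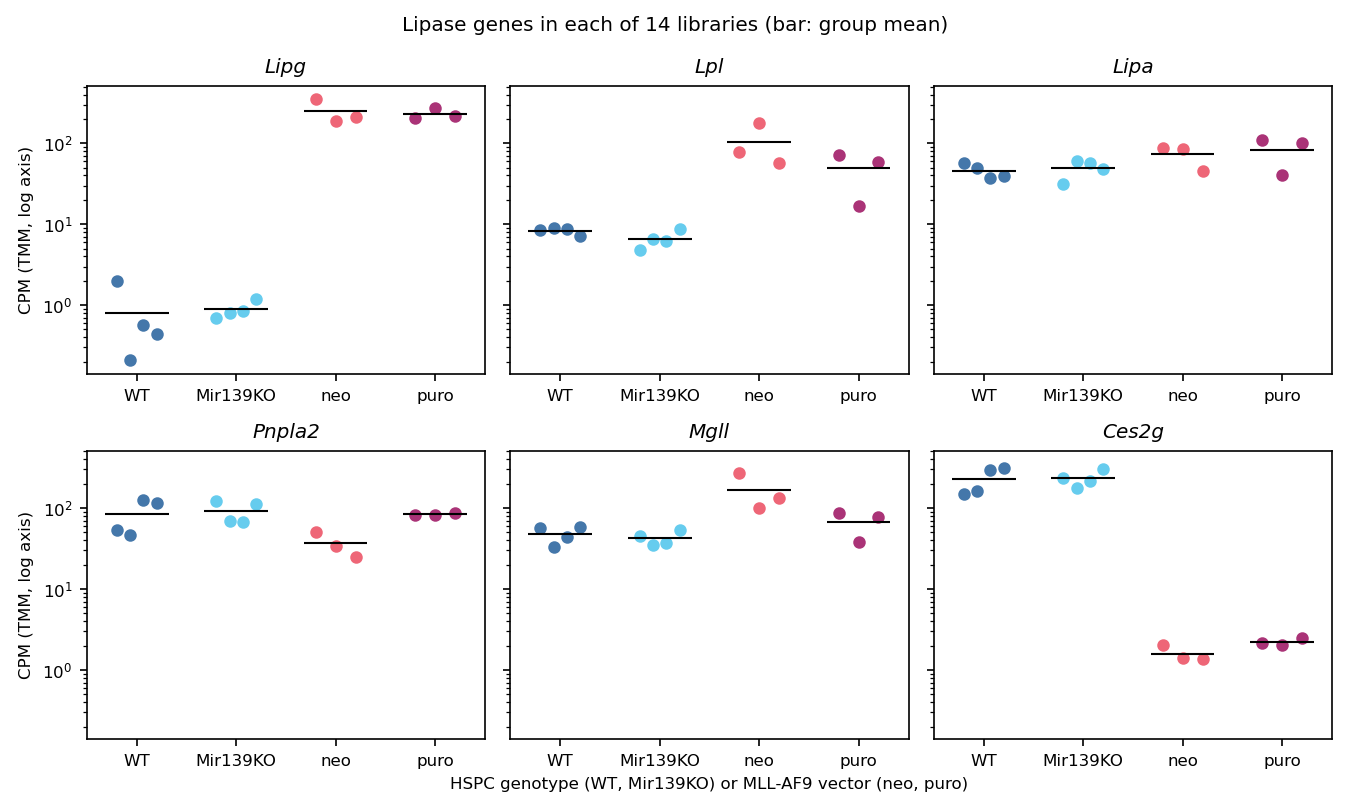
CPM with TMM scaling (vertical log axis) of 6 lipase genes in each of the 14 libraries, by HSPC genotype (WT, Mir139KO; n = 4 each) or MLL-AF9 vector (neo, puro; n = 3 each). Points are libraries and bars group means. *Lipg* and *Lpl* lie higher in all cultures than in any HSPC library, *Ces2g* lies lower in all, and *Lipa*, *Pnpla2* and *Mgll* overlap. *Lipe*, at 0 throughout, is left out.

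Among the 6 members with counts, MLL-AF9 and WT libraries did not overlap for 3, with 2 higher (*Lipg*, *Lpl*) and 1 lower (*Ces2g*). Over the 17077 genes tested, 25.8% did not overlap and were higher in MLL-AF9 cells and 24.9% were lower. The same 3 members did not overlap against Mir139KO HSPCs, where the shares of 16953 genes were 29.5% higher and 28.6% lower. Because the contrast chose 2 of the members, nothing is read from the count. The median log2 fold change was 1.03 over the 6 members and 0.14 over all genes against WT, and 1.04 and 0.16 against Mir139KO. With scaling by total counts the all-gene medians were 0.69 and 0.84, so *Lipg* and *Lpl* stayed above and *Ces2g* below the median of all genes with either scaling.

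**Figure D3:**
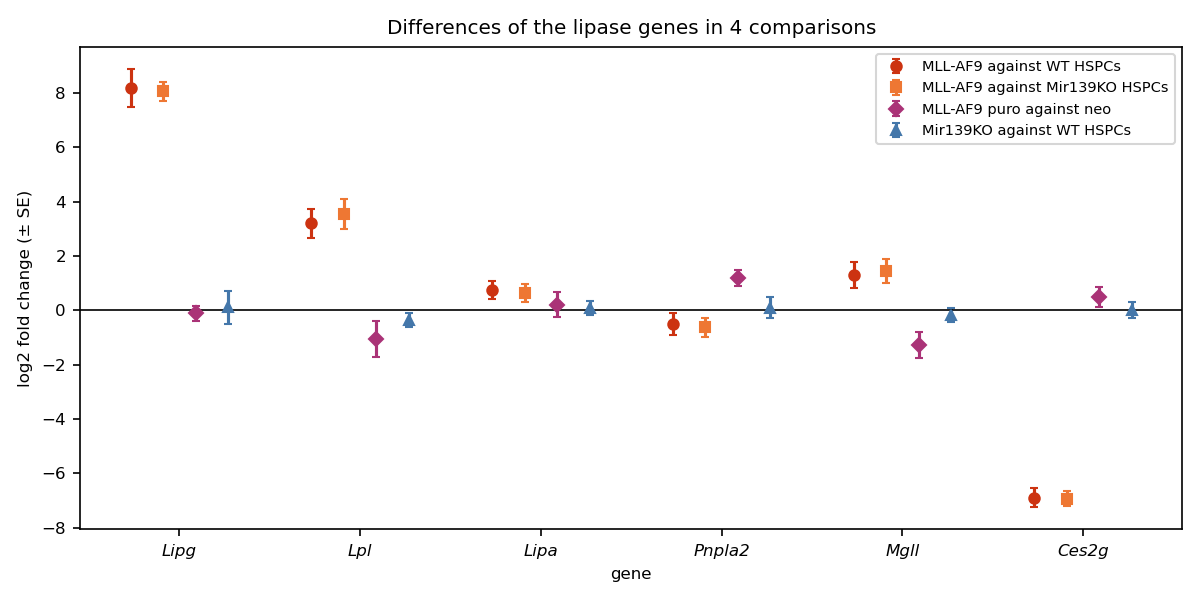
log2 fold change (vertical axis, points, with SE as bars) of 6 lipase genes in 4 comparisons of the edgeR fit. In the contrasts with HSPCs *Lipg* stands at 8.19 and 8.07 and *Ces2g* at −6.90 and −6.94, and between the vectors *Pnpla2* stands at 1.19 and *Mgll* at −1.29.

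The order of the levels per kilobase of exons differed between HSPCs and MLL-AF9 cells. In WT HSPCs *Ces2g* came first with a mean of 64.1 CPM per kb, then *Pnpla2* with 28.3, *Mgll* with 9.42, *Lipa* with 6.76, *Lpl* with 0.794 and *Lipg* with 0.17. The ranges of *Ces2g* and *Pnpla2* touched and those of *Mgll* and *Lipa* overlapped, while the other neighbours in the order were separate. Mir139KO HSPCs had the same order, from 65.3 CPM per kb for *Ces2g* to 0.188 for *Lipg*. In MLL-AF9 cells *Lipg* came first with 51.2 CPM per kb, then *Mgll* with 23.1, *Pnpla2* with 20, *Lipa* with 11.5, *Lpl* with 7.35 and *Ces2g* with 0.536. There each neighbour overlapped the next except *Lpl* and *Ces2g*. The bases that the counting used are not given in the sources used here, so levels were also set per kilobase of gene span free of other genes. On that scale *Lipg* and *Pnpla2* were level in MLL-AF9 cells, at 11 and 10.9 CPM per kb, and *Mgll* moved from the second to the fifth place with 1.31. In HSPCs *Mgll* and *Lipa* changed places, with 0.534 and 1.3 CPM per kb in WT.

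**Figure D4:**
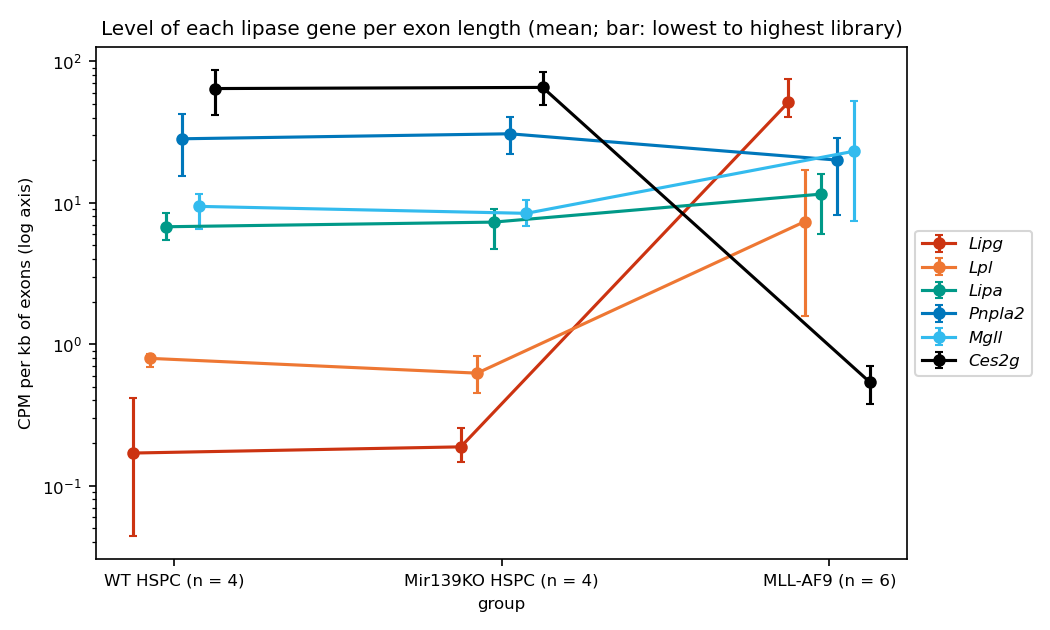
Mean CPM per kilobase of exons (vertical log axis) of 6 lipase genes in WT HSPCs (n = 4), Mir139KO HSPCs (n = 4) and MLL-AF9 cells (n = 6). Bars run from the lowest to the highest library and lines only join points of the same gene. *Ces2g* goes from the first place, at 64.1, to the last, at 0.536, and *Lipg* from the last, at 0.17, to the first, at 51.2.

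The members were tested between the MLL-AF9 cultures with the puro and neo vectors, a contrast that did not choose them. The edgeR quasi-likelihood test called none of the 6 at an adjusted p under 0.05, against 0.873% of 16503 genes called, and 2 had an unadjusted p under 0.05. *Pnpla2* was 1.19 higher in puro cultures on the log2 scale (SE 0.29), with means of 83.9 ± 1.81 and 36.7 ± 13 CPM (SD, n = 3 each) and an edgeR adjusted p of 0.133. *Mgll* was −1.29 (SE 0.48), with 67.7 ± 26.1 CPM in puro and 167 ± 88.5 CPM in neo cultures and an edgeR adjusted p of 0.311. The vectors did not overlap for these 2 genes. Over all genes, 11.1% did not overlap and were higher in puro cultures and 8.67% were lower. DESeq2 called 1 member, *Pnpla2*, with an adjusted p of 0.0134, against 8.03% of all genes called by DESeq2, and over all alternatives its adjusted p ran from 0.0134 to 0.434. For *Mgll* it ran from 0.0461 to 0.62, the lowest with a replicate block and GC content correction, under which 1.57% of all genes were called.

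None of the other members was called between vectors. On the log2 scale, puro minus neo was −1.06 for *Lpl* (SE 0.65), 0.49 for *Ces2g* (SE 0.37), 0.21 for *Lipa* (SE 0.45) and −0.11 for *Lipg* (SE 0.28), with edgeR adjusted p-values of 0.553, 0.631, 0.872 and 0.896. With 2 SE on either side the difference of *Lipg* ran from −0.67 to 0.45 and that of *Lpl* from −2.36 to 0.24. Puro replicate 2 had the lowest *Lpl*, *Lipa* and *Mgll* of the puro cultures, while *Pnpla2* and *Ces2g* there were at the level of the other puro cultures. Without it *Mgll* was −0.99, *Lpl* −0.64 and *Lipa* 0.55, no member was called, and the genes called over the whole table rose from 144 to 990. Over all genes but *Gm26917*, puro replicate 2 differed less from neo 2 and 3 than from puro 1 and 3. The chi-square per degree of freedom was 198 and 197, against 375 and 362. Likewise neo replicate 1 differed less from puro 1 and 3 (207 and 201) than from neo 2 and 3 (278 and 245). The summed monocyte and macrophage markers were 663 to 669 CPM in puro and 261 to 387 CPM in neo cultures, on the same side as *Pnpla2*. None of the 7 tested passed the edgeR threshold, 3 had an unadjusted p under 0.05, and their part in the difference was not tested.

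Loss of *Mir139* was not accompanied by a called difference in any member. In Mir139KO against WT HSPCs edgeR called none of the 6 members and none of 15056 genes (0% of the table), as did DESeq2. No member and 86 genes of the table had an unadjusted p under 0.05 with edgeR. The largest difference with all 8 libraries was that of *Lpl*, −0.36 on the log2 scale (SE 0.27), with an unadjusted p of 0.207 in the edgeR fit and an adjusted p of 1. *Mgll* differed by −0.18 (SE 0.26), *Lipg* by 0.11 (SE 0.60), *Pnpla2* by 0.10 (SE 0.38), *Lipa* by 0.09 (SE 0.27) and *Ces2g* by 0.01 (SE 0.31). No member separated the genotypes, against 0.511% of all genes. With 2 SE on either side the difference of *Lipg*, from libraries with 9 to 95 counts, ran from −1.09 to 1.31, the widest of the 6, and that of *Ces2g* from −0.61 to 0.63. Without WT replicate 1 the difference of *Lipg* was 1.1, with an edgeR adjusted p of 1.

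Beyond the members, 168 genes of 7 lists around the same pathways were counted. Of these 167 were in the table, 7 had no base free of other genes, and 122 were tested in MLL-AF9 cells against WT HSPCs. With edgeR 34 were called higher and 30 lower, against 32.8% and 29.4% of all genes called higher and lower, and the list median was 0.33 on the log2 scale, against 0.14 for all genes. Against Mir139KO HSPCs 40 of 121 were called higher and 32 lower, against 37.3% and 31.9% of all genes. With scaling by total counts the split was 49 higher and 23 lower against WT, and 61 and 21 against Mir139KO. Under that scaling 39.5% and 18.3% of all genes were called higher and lower against WT, and 47.3% and 18.9% against Mir139KO. The shares called in the lists together were thus near those of all genes. The genes named below had a mean of at least 1 on the log2 CPM scale over the 14 libraries. That can leave out genes low throughout, and genes low only in HSPCs or only in cultures. Those left out whose change was larger than that of a gene named in the same direction were added after the values were seen.

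Another list held genes that mature, anchor, activate or inhibit the secreted lipases, and further secreted lipases of their family. Of its 15 genes tested, 6 were called lower and 3 higher against WT, with a median of −0.40. The 3 called higher were *Lipc* and *Liph*, both of the lipase family, and *Sorl1*. Beside this list count and each list count against WT below stand 29.4% of all genes called lower and 32.8% called higher. No direction is read from such short lists. *Apoe*, the apolipoprotein that binds lipoprotein receptors, fell from 191 ± 68.4 CPM in WT to 7.41 ± 3.11 CPM in MLL-AF9 cells (SD), a log2 fold change of −4.70 (SE 0.38) with an edgeR adjusted p of 2.87e-06. *Sdc1*, a heparan sulfate proteoglycan of the cell surface, fell by 3.35 on the log2 scale (SE 0.55, edgeR adjusted p = 0.000336). *Lipc* (hepatic lipase), a close relative of *Lipg* and *Lpl*, rose by 1.26 (SE 0.45), but only to 5.39 ± 2.57 CPM (edgeR adjusted p = 0.0277). *Sorl1*, a sorting receptor that binds lipoprotein lipase, rose by 1.20 (SE 0.37) to 803 ± 295 CPM (edgeR adjusted p = 0.0133). 2 further partners were looked up after the values were seen. *Lmf2*, a paralogue of the lipase maturation factor, fell by 2.66 (SE 0.34, edgeR adjusted p = 6.33e-05), whereas *Lmf1*, which folds both secreted lipases, was not called, at 43.1 and 37.3 CPM in WT and MLL-AF9 cells. Of the genes with a mean log2 CPM under 1, *Hspg2* (perlecan, a heparan sulfate proteoglycan) fell from 8.2 ± 6.94 to 0.0668 ± 0.0483 CPM (edgeR adjusted p = 3.8e-05). *Liph*, a phospholipase of the same family as *Lipg*, rose from 0.741 ± 0.24 to 3.56 ± 1.54 CPM (edgeR adjusted p = 0.00125).

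The lipid droplet list held the most genes called higher, 13 of 26 tested, with 5 called lower and a median of 0.76. *Dagla*, a diacylglycerol lipase, rose from 0.477 ± 0.101 to 18.5 ± 15.3 CPM, or by 5.26 on the log2 scale (SE 0.76, edgeR adjusted p = 0.000144). *Pnpla8*, a patatin-like phospholipase with 52.8% of its span free of other genes, rose by 4.25 (SE 0.60) to 129 ± 73.3 CPM (edgeR adjusted p = 0.000123). *Faah*, which hydrolyses fatty acid amides, fell by 4.71 (SE 0.54) from 14.1 ± 5.25 CPM (edgeR adjusted p = 3.02e-05). *Aqp9*, a glycerol channel, fell by 4.11 (SE 0.32) from 41.8 ± 8.58 CPM (edgeR adjusted p = 2.37e-06). Of the genes with a mean log2 CPM under 1, the lipid droplet protein gene *Cidec* rose from 0.0145 ± 0.018 to 1.06 ± 1.48 CPM (edgeR adjusted p = 0.00208). *Aqp7*, another glycerol channel, rose from 0.0555 ± 0.0393 to 1.59 ± 0.843 CPM (edgeR adjusted p = 0.000145). *Abhd5*, the coactivator of the enzyme encoded by *Pnpla2*, was looked up after the values were seen. It rose from 27.4 ± 8.45 to 103 ± 54.5 CPM, by 1.91 on the log2 scale (SE 0.41, edgeR adjusted p = 0.00174), while *G0s2*, an inhibitor of the same enzyme, was at 0 in all libraries and has no base free of other genes.

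Among the carboxylesterases only 3 of 22 genes had enough counts for a test in MLL-AF9 cells against WT. *Ces1d*, a paralogue of *Ces2g*, went the opposite way to it, from 0.494 ± 0.498 CPM in WT and 0.684 ± 0.161 in Mir139KO HSPCs to 19 ± 14.6 CPM in MLL-AF9 cells. Its log2 fold change was 5.23 against WT (SE 0.91, edgeR adjusted p = 0.000469) and 4.77 against Mir139KO (SE 0.66, edgeR adjusted p = 5.51e-05). *Esd* (esterase D) rose by 1.12 (SE 0.29, edgeR adjusted p = 0.00489) to 152 ± 43.5 CPM, and *Nceh1*, a neutral cholesteryl ester hydrolase, differed by 1.01 against WT without passing the threshold (edgeR adjusted p = 0.0978). The paralogues nearest to *Ces2g*, the other *Ces2* genes, had at most 41 counts in any library. Reads shared between near-identical copies may have been dropped or split, and how such reads were counted is not given in the sources used here.

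Of 21 lysosomal genes tested 4 were called higher and 4 lower against WT, with a median of −0.31. *Mitf*, a transcription factor related to the lysosomal regulators *Tfeb* and *Tfe3*, rose by 3.50 (SE 0.46, edgeR adjusted p = 7.86e-05), and *Lamp2*, a lysosomal membrane protein, rose by 2.30 (SE 0.54, edgeR adjusted p = 0.0029). *Smpd1* (acid sphingomyelinase) fell by 2.26 (SE 0.36, edgeR adjusted p = 0.000265) and *Gm2a*, the GM2 ganglioside activator, by 1.91 (SE 0.46, edgeR adjusted p = 0.00333). *Lipn*, a paralogue of *Lipa* named after its values were seen, had 0.113 to 9.02 CPM in the cultures, 0 to 0.0232 CPM in WT and 0 CPM in all Mir139KO libraries.

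Among 19 uptake genes 6 were called higher and 3 lower, with a median of 0.75. *Olr1*, a receptor for oxidised LDL, rose by 4.65 (SE 0.72) to 94.7 ± 52.4 CPM (edgeR adjusted p = 0.000214), and *Lrp8*, a lipoprotein receptor, by 2.33 (SE 0.37, edgeR adjusted p = 0.000253). Of those called lower, 2 had a mean log2 CPM under 1. *Acsl6*, an acyl-CoA synthetase, fell from 8.27 ± 0.877 to 0.00657 ± 0.0161 CPM (edgeR adjusted p = 1.46e-06). *Slc27a6*, of the fatty acid transport protein family, fell from 0.544 ± 0.136 to 0.00918 ± 0.0152 CPM (edgeR adjusted p = 5.58e-05). *Acsl5*, an acyl-CoA synthetase with only 42.3% of its span free, fell by 0.95 (SE 0.29, edgeR adjusted p = 0.0121). Of 23 fatty acid oxidation genes 4 were called higher and 8 lower, with a median of −0.24, and the enzymes named by the rule were lower. *Hadha*, the alpha subunit of the mitochondrial trifunctional protein, fell from 199 ± 25 to 76.9 ± 20.6 CPM (log2 fold change −1.38, SE 0.25, edgeR adjusted p = 0.000604), and *Acaa2*, a mitochondrial thiolase, fell by 1.23 (SE 0.28, edgeR adjusted p = 0.00228). The 2 named with a rise were nuclear receptors that bind fatty acids. *Pparg* rose by 5.10 (SE 0.64, edgeR adjusted p = 5.61e-05), and *Ppard* by 1.80 (SE 0.29, edgeR adjusted p = 0.00031). Of the genes with a mean log2 CPM under 1, the coactivator *Ppargc1a* rose from 0.0521 ± 0.0407 to 0.411 ± 0.176 CPM, by 2.87 (SE 0.66, edgeR adjusted p = 0.00264). *Ehhadh*, a peroxisomal oxidation enzyme, fell from 5.08 ± 1.29 to 0.449 ± 0.312 CPM (edgeR adjusted p = 0.000319), and *Cpt1c*, a carnitine palmitoyltransferase paralogue, from 2.76 ± 1.36 to 0.689 ± 0.209 CPM (edgeR adjusted p = 0.00134).

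In the list of triglyceride and cholesteryl ester synthesis 2 of 15 genes were called higher and 4 lower, with a median of 0.36. *Gpat3*, a glycerol-3-phosphate acyltransferase, rose by 2.30 (SE 0.64, edgeR adjusted p = 0.00766) and *Dgat1*, which makes triglyceride from diacylglycerol, by 1.28 (SE 0.44, edgeR adjusted p = 0.0237). *Agpat3* and *Gpat4*, also acyltransferases, fell by 2.22 (SE 0.32, edgeR adjusted p = 0.000145) and 1.83 (SE 0.34, edgeR adjusted p = 0.000728). Between the vectors edgeR called none of 119 list genes, with 28 at an unadjusted p under 0.05, against 13.7% of all genes at such a p. DESeq2 called 5 higher and 16 lower in puro cultures, against 4.87% and 3.16% of all genes. Without puro replicate 2 edgeR called 1 higher and 8 lower, against 3.83% and 1.92% of all genes. Between the HSPC genotypes edgeR and DESeq2 called none of 116, and none had an unadjusted p under 0.05.

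**Figure D5:**
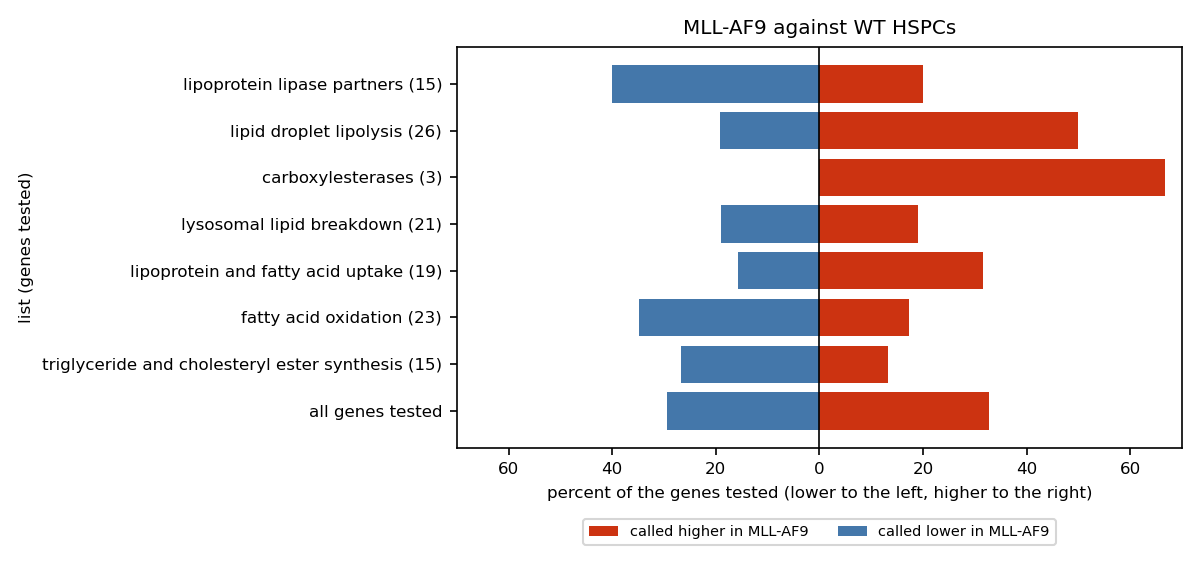
Percent of the genes tested (horizontal axis) that were called higher (right) or lower (left) in MLL-AF9 cells than in WT HSPCs, for 7 lipid gene lists without the members (genes tested in brackets) and for all genes. All genes stand at 32.8% higher and 29.4% lower. The lipid droplet list reaches furthest to the right among lists with more than 3 genes tested, with 13 of 26.

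The genes whose pattern over the 14 libraries was most like each member were, for *Lipg*, *Wdr25* (r = 0.990), *Pmaip1* (0.988) and *Zfand3* (0.987). For *Lpl* they were *Zmat3* (r = 0.969), *Cped1* (0.967) and *Pparg* (0.966), the last with 2.44 CPM in WT and 83.9 CPM in MLL-AF9 cells on average. *Lipa* was closest to *Bcl2l11* (r = 0.944), *Stard9* (0.916) and *Gm46224* (0.915), and *Mgll* to *Adcy7* (0.952), *Smad6* (0.949) and *Daam2* (0.934). *Pnpla2* was closest to *Naglu* (r = 0.981), a lysosomal enzyme, *Hk3* (0.965) and *Tap2* (0.962). The values of r are a description over libraries that share the group difference and the scaling.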

How the data were processed

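Total RNA of 14 libraries was depleted of ribosomal RNA (KAPA RNA HyperPrep with RiboErase) and sequenced on a NovaSeq. The deposited values were raw counts per gene. Per the submitters' processing notes and the methods of the study, the authors aligned reads to GRCm38 (mm10) with STAR 2.5.3e and counted them with featureCounts 1.6.0 and GENCODE M15. How strand, shared reads and reads in overlapping genes were treated is not given in the sources used here. Genes with no base free of another gene's span were nearly all at 0, so such genes were not interpreted. Deposited counts under other column names, outside these 14 libraries, were not used.

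Samples were grouped by their labels. Symbols and coordinates came from GENCODE M21 (GRCm38), which matched 52403 of 52550 genes. Counts were tested with edgeR 4.0.16 (R 4.3.3, limma 3.58.1), quasi-likelihood F test, TMM scaling, genes with at least 10 counts in as many libraries as the smaller group, Benjamini-Hochberg over all genes tested and an adjusted p under 0.05. The scripts were tested on simulated data. Alternatives were DESeq2 1.42.0, RLE and total-count scaling, no filter or a mean of at least 100 counts, leaving out *Gm26917*, GC content correction (spline with 5 degrees of freedom), the replicate number as a block, all 14 libraries in 1 fit, each library left out, either vector alone, HSPC libraries under or over 25% *Gm26917*, and puro replicates 1 and 3 summed. The last pair differed least (chi-square per degree of freedom 5.29, other pairs 20.6 to 544), above sampling noise, and was counted as 2 samples. Between the HSPC genotypes the split at 25% *Gm26917* was also tried as a covariate. Members and lists were chosen with earlier results of these data known. Named genes were the members, in each list the 2 called genes with the largest rise and the 2 with the largest fall at a mean log2 CPM of at least 1, every carboxylesterase tested, and the 3 genes with the highest r to each member. Those named besides, and the levels per free span, were chosen after the data were seen. Limits of 3 counts cover counting error only.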

Additional observations from a re-analysis of the deposited data

How the results depend on the processing

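*Lipg* and *Ces2g* kept their direction and their separate groups against both HSPC groups under every alternative tried, from 7.71 to 9.22 and 7.93 to 8.8 for *Lipg*, and from −7.40 to −6.19 and −7.19 to −6.18 for *Ces2g* (log2 fold changes). *Lpl* stayed positive, from 1.98 to 3.77 and from 2.3 to 4.25, but overlapped HSPCs after the GC content correction. *Mgll* stayed positive, from 0.52 to 1.99 and 0.69 to 2.27. *Pnpla2* turned to 0.24 and 0.17 with total-count scaling, 0.33 and 0.26 with the GC content correction, 0.39 and 0.29 with replicate block and GC content correction, and 0.20 against WT libraries under 25% *Gm26917*. *Lipa* turned to −0.64 and −0.79 with the GC content correction, and −0.57 and −0.73 with replicate block and GC content correction. The cause was not tested. With neo cultures alone 5 members did not overlap Mir139KO HSPCs, *Pnpla2* and *Mgll* being added to the 3. Without puro replicate 2, *Mgll* was added to the 3 against both HSPC groups. With the GC content correction 2 members did not overlap WT HSPCs and 4 did not overlap Mir139KO HSPCs.

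In the lists against Mir139KO HSPCs, total-count scaling gave 61 called higher and 21 lower, and HSPC libraries under 25% *Gm26917* gave 26 higher. Between vectors, 1 member was called with DESeq2 (*Pnpla2*, adjusted p = 0.0134) and 1 with replicate block and GC content correction (*Mgll*, edgeR adjusted p = 0.0461). There the lists had 5 called higher and 16 lower with DESeq2, 1 higher and 7 lower with all 14 libraries in 1 fit, 2 lower with no filter, 1 lower without *Gm26917*, 1 lower with the replicate block and 2 lower with block and GC content correction. With each library left out they had 0 to 1 higher and 0 to 8 lower, the most without puro replicate 2. Over all genes the calls between vectors were 144, and 1326 with DESeq2, 214 with the replicate block, 692 with all 14 libraries, 221 with no filter, 259 with block and GC content correction, 990 without puro replicate 2, 5 with puro replicates 1 and 3 summed, and 0 to 41 without any other single library. The replicate numbers did not pair the samples. Same-numbered WT and Mir139KO libraries correlated from −0.817 to 0.901 in their deviations, and neo and puro libraries from −0.532 to 0.656. The block moved no other count of calls given here by over 1.5 times.

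Small differences changed sign without passing the threshold. Leaving out 1 library moved puro against neo from −0.27 to 0.25 for *Lipg* and from −0.04 to 0.55 for *Lipa*. It moved Mir139KO against WT from −0.22 to 1.1 for *Lipg*, −0.03 to 0.26 for *Lipa*, −0.12 to 0.36 for *Pnpla2* and −0.16 to 0.19 for *Ces2g*. Total-count scaling turned that difference to −0.12 for *Lipg*, −0.01 for *Lipa* and −0.01 for *Ces2g*, which was also −0.01 with a mean of at least 100 counts and −0.04 with the GC content correction. With only list genes whose span is at least 50% free, chosen after the data were seen, 34 were called higher and 29 lower against WT. Depth limits *Lipg* in HSPCs most.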
